A study of Caenorhabditis elegans with 2 samples.

Results

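The subject is a set of 50 cell cycle and DNA replication genes of Caenorhabditis elegans. They are among 19971 protein-coding genes annotated on its nuclear chromosomes. For these 50 genes, the regions called for a tagged zinc finger protein, Y55F3AM.14, are described. The genes were taken from a list of known symbols, all of which matched the RefSeq annotation of WBcel235, and were divided by function into 16 replication genes, 18 cell cycle control genes and 16 kinetochore and mitosis genes. Chromatin immunoprecipitation followed by sequencing was done on whole L2 larvae of strain OP608 at 42 hours, of pooled sex, synchronised by starvation at L1 after bleaching. These animals carried the unc-119(tm4063) mutation and an integrated transgene, wgIs608, which holds Y55F3AM.14 joined to TY, EGFP and 3xFLAG tags together with unc-119(+). The labels name the antibody as anti-GFP in the description and by the target, Y55F3AM.14, in the antibody field. There was 1 group of 2 biological replicates, so no condition was compared with another, and no untagged or untransformed animals were among the samples used here, so the specificity of the signal was not tested. In whole larvae, binding in a few cells and weak binding in many cells cannot be told apart.

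DNA replication begins when the origin recognition complex, with CDC-6 and CDT-1, loads the MCM helicase onto chromatin in G1. Entry into S phase is driven by cyclin D with CDK-4 and cyclin E with CDK-2, and is held back by CDK inhibitors such as CKI-1 and by the retinoblastoma protein LIN-35, which acts with the transcription factors EFL-1 and DPL-1. Kinetochore proteins then link chromosomes to spindle microtubules in mitosis, under the watch of the spindle checkpoint. In larvae, the blast cells that build the adult body pass through repeated divisions, whereas many differentiated cells have left the cycle.

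The sequences under 4 of the 7 summits of the optimal list, and under the strongest intergenic summit at a start below that list, are given here to show what such sites look like. They are not the strongest 4: the windows of lin-35, cye-1 and mcm-4 are not shown, and of these only mcm-4 holds any of the motifs searched. Each is 151 bases, 75 on each side of the summit, on the strand of the named gene, from the RefSeq genome of WBcel235 (coordinates of ce11). Capitals mark matches on either strand to TTTNNCGC, a loose form of the E2F site, to GACGC or to GAGAGA. The window of pcn-1, the replication clamp PCNA, is IV:4049636-4049786 on the minus strand. That of efl-1, an E2F gene, is V:16965855-16966005 on the minus strand, and that of knl-3, a gene of the outer kinetochore, is V:1868724-1868874 on the plus strand. The window of mdf-1, the Mad1 homolog of the spindle checkpoint, is V:9544359-9544509 on the minus strand. The window of mcm-7, a helicase subunit with a weaker region, is V:4346947-4347097 on the plus strand.
pcn-1: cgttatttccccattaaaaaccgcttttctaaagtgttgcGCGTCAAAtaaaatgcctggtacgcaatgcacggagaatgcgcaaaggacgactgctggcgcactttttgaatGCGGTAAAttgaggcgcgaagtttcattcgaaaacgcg
efl-1: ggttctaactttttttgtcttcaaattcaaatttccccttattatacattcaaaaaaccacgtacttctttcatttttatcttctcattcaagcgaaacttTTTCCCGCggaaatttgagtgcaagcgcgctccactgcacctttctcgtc
knl-3: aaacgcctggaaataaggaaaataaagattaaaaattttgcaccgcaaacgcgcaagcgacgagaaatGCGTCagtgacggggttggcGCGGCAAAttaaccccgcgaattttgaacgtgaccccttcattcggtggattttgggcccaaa
mdf-1: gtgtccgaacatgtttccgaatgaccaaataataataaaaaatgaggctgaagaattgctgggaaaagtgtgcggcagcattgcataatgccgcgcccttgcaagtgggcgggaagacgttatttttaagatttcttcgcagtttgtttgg
mcm-7: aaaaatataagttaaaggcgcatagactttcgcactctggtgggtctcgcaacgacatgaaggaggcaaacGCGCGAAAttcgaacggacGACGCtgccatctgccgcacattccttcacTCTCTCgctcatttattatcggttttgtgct

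In the pcn-1 window the first run of capitals is a TTTNNCGC match that overlaps a GACGC match, and the second is TTTNNCGC alone. The efl-1 window holds TTTCCCGC, a strict form of the E2F site. In knl-3 the first run is GACGC and the second is TTTNNCGC, both on the opposite strand, and the mdf-1 window holds none of them. The mcm-7 window holds 1 match to each of TTTNNCGC, GACGC and GAGAGA.

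Optimal regions stood within 500 bp of a start at 6 of the 50 genes: the replication genes mcm-4 and pcn-1, the control genes lin-35 and efl-1, and the kinetochore and mitosis genes knl-3 and mdf-1. The optimal list holds the 1604 regions that the authors kept by an irreproducible discovery rate threshold, and they are the 1604 highest-scoring regions of the pooled relaxed list. The share was 12% (95% exact interval 4.53 to 24.3), beside 3.42% of all protein-coding genes. Regions inside a gene body added cye-1, cyclin E, so that 7 of 50 genes (14%, 5.82 to 26.7) had an optimal region, beside 4.86% of all protein-coding genes. The listed genes have a median length of 2906 bp, beside 2006 bp for all protein-coding genes, which bears on counts that include the gene body. No test of the list was made, because its genes were chosen with earlier results of these data known.

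Shares of the 3 functions were close, and no test of a difference was made. At a start, 2 of 16 replication genes (12.5%, 1.55 to 38.3), 2 of 18 control genes (11.1%, 1.38 to 34.7) and 2 of 16 kinetochore and mitosis genes (12.5%, 1.55 to 38.3) had an optimal region, and the intervals overlap almost fully. With the gene body, the counts were 2 of 16, 3 of 18 (16.7%, 3.58 to 41.4) and 2 of 16. Groups of this size cannot show a moderate difference between functions.

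**Figure D1:**
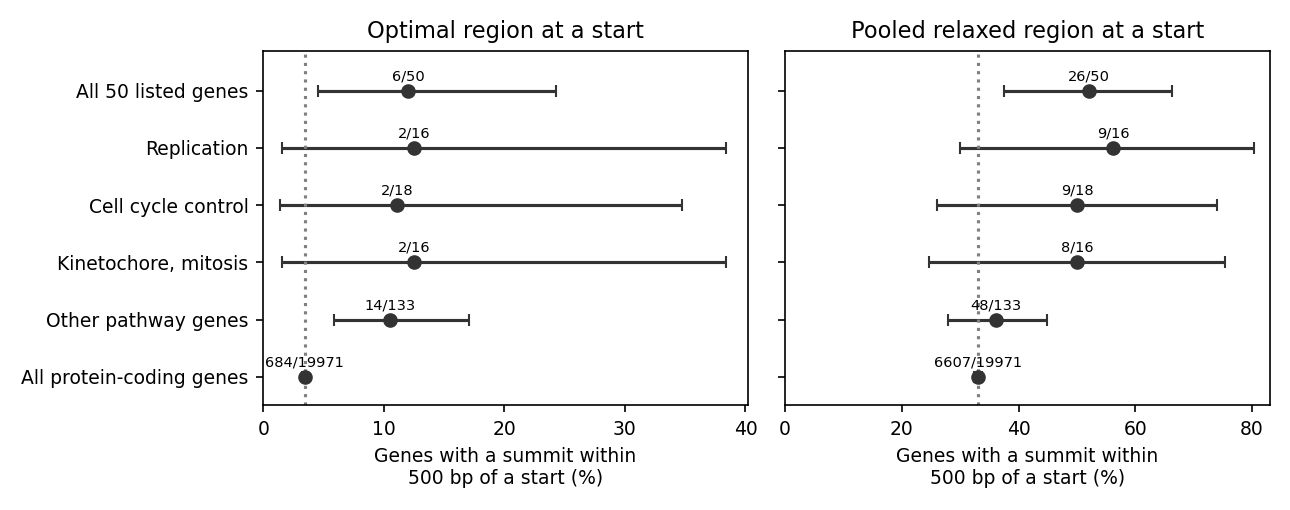
Percentage of genes with a summit within 500 bp of a start (x axis) for the 50 listed genes, their 3 functional groups, 133 other genes of the same pathways and all protein-coding genes (y axis), for the optimal list on the left and the pooled relaxed list on the right. Points are shares, bars are 95% exact intervals that cover counting error only, and the dotted line marks all protein-coding genes, at 3.42% and 33.1%; the 3 groups lie at 11.1% to 12.5% on the left and at 50% to 56.25% on the right.

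Among replication genes the strongest region belonged to pcn-1, whose protein holds the DNA polymerase on its template. It lay in intergenic sequence at IV:4049499-4049922, with its summit 263 bp upstream of the start. Its score, the signal value of the authors' peak caller, was 240.0 for both replicates pooled, 119 in replicate 1 and 123 in replicate 2. It held rank 365 of 29577 regions in replicate 1 and rank 215 of 28681 in replicate 2, so both replicates placed it high. No other gene had a start within 500 bp of this summit.

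The region of mcm-4, a subunit of the MCM helicase, lay at I:2321769-2322192, with its summit 164 bp upstream of the start. Its scores were 169 pooled, 101 in replicate 1 and 66.0 in replicate 2. Replicate 1 ranked it at 517 and replicate 2 at 969. The start of Y39G10AR.32 also lay within reach, 324 bp from the summit. A second, weaker mcm-4 region (score 70.2) had its summit 6 bp from the start of a short annotated transcript near the end of the gene and was found in replicate 1 but not in replicate 2.

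The other MCM genes had regions of the pooled relaxed list alone, which holds background as well as peaks. The strongest was that of mcm-7, 144 bp upstream of its start, with a score of 76.9 pooled, 55 in replicate 1 and 29.9 in replicate 2. It ranked 4148 of 29629 in the pooled list, well below the optimal list. All 6 MCM genes had some pooled region, but only mcm-4 and mcm-7 had one at a start. The regions in mcm-2, mcm-3 and mcm-5 scored 36.2 to 42.4 against a list minimum of 36.1, and that of mcm-6, at 42.8, fell in a coding exon of srxa-10, which lies within mcm-6.

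Genes of origin licensing had no optimal region. Pooled regions stood at the starts of cdc-6 (score 64.3, 278 bp upstream), cdt-1 (51.7, 143 bp downstream) and orc-2 (45.7, 94 bp downstream), each in 1 replicate list and not in the other. The cdc-6 summit was nearer to the start of acin-1, at 101 bp, than to that of cdc-6. The genes orc-1 and gmn-1, which encodes geminin, an inhibitor of CDT-1, had no pooled region, nor had rpa-1, the large subunit of the single-strand binding protein RPA.

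Of the genes of nucleotide supply, rnr-2, the small subunit of ribonucleotide reductase, had a region 420 bp upstream of its start (score 62.9), found in replicate 1 but not in replicate 2. Its partner rnr-1, the large subunit, had one 177 bp downstream (40.7), also only in the replicate 1 list, and one in the gene body (51.7). The strongest region below the optimal list at any listed gene lay in a coding exon of div-1, the B subunit of DNA polymerase alpha, 3194 bp from the start. It scored 92.5 pooled, 55.5 in replicate 1 and 37.1 in replicate 2, and held rank 2471. A weaker div-1 region lay 114 bp upstream of the start, at 46.6 pooled, 27.8 in replicate 1 and 21.5 in replicate 2. The optimal list ends at a score of 110.3, and the listed gene just above that limit was efl-1.

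Of the control genes, lin-35, the only retinoblastoma family gene of the list, had the highest score of all 50 genes. Its region lay at I:5807331-5807754, in the intergenic space it shares with vps-51, with the summit 166 bp upstream of lin-35 and 252 bp upstream of vps-51. Scores were 243 pooled, 148 in replicate 1 and 98.1 in replicate 2. The ranks, 216 and 373, were high in both lists.

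The E2F gene efl-1, whose protein binds DNA as a dimer with DPL-1, had the weakest of the 7 optimal regions (V:16965718-16966141, 255 bp upstream). It scored 117 pooled, 57.2 in replicate 1 and 57.7 in replicate 2. At rank 2149 it was outside the 1604 highest of replicate 1, and at rank 1328 it was inside those of replicate 2. For dpl-1 the only region (44.3) fell in an intron of dpl-1 and of T23G7.2, which overlaps dpl-1, and was in replicate 1 alone.

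Cyclin E was the exception in position. The cye-1 region (I:6781564-6781987) lay in an intron, 970 bp downstream of the nearest start, and its summit was 27 bp upstream of the tRNA gene C37A2.t1. Its scores were 198 pooled, 116 in replicate 1 and 76.7 in replicate 2. Of the 36-base stretches in its summit window, 87.1% occurred once in the genome, against 100% in the windows of the other 6 optimal regions. The tRNA gene and the cyclin gene cannot be told apart as the element occupied. At the cye-1 start itself the pooled list had only a region of score 37.9, with no summit within 100 bp in either replicate.

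The other kinases and cyclins had weak regions. Those at the starts of cyd-1, cyclin D (47.2 and 44.1), cyb-1, a cyclin B (45.1 and 37.6), and cdk-2 (36.5) were below the median score of the pooled list, 49.7. The stronger cyd-1 regions lay in introns (65.1 and 55.2) and were in the list of replicate 1 but not of replicate 2. The genes cdk-4, cya-1 and cyb-3 had body regions of 41.9 to 48.4, and cdk-1, the mitotic kinase gene, had none.

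The CDK inhibitor gene cki-1 carried the strongest region at a start below the optimal list. It scored 87.6 pooled, 33.5 in replicate 1 and 46.8 in replicate 2, with its summit in a coding exon 113 bp past the start. Replicate 2 ranked it at 2348 and replicate 1 at 10787. The related gene cki-2 had body regions only, of 40.6 and 37.6.

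Among phosphatases, cdc-25.2, which activates CDKs and is the longest listed gene at 18457 bp, had 6 pooled regions, the most of any listed gene. The strongest (81.2) lay in an untranslated exon, 383 bp upstream of F16B4.7, and those at an annotated start scored 63.1, in replicate 1 and not replicate 2, and 39.5, in replicate 2 and not replicate 1. The cdc-14 start had a region 287 bp upstream, at 51.2 pooled, 42.0 in replicate 1 and 19.7 in replicate 2. For the SCF ubiquitin ligase, cul-1 had a body region of 68.8 and lin-23, its F-box subunit gene, body regions of 49.2 to 53.9. The phosphatase gene cdc-25.1 had no region.

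**Figure D2:**
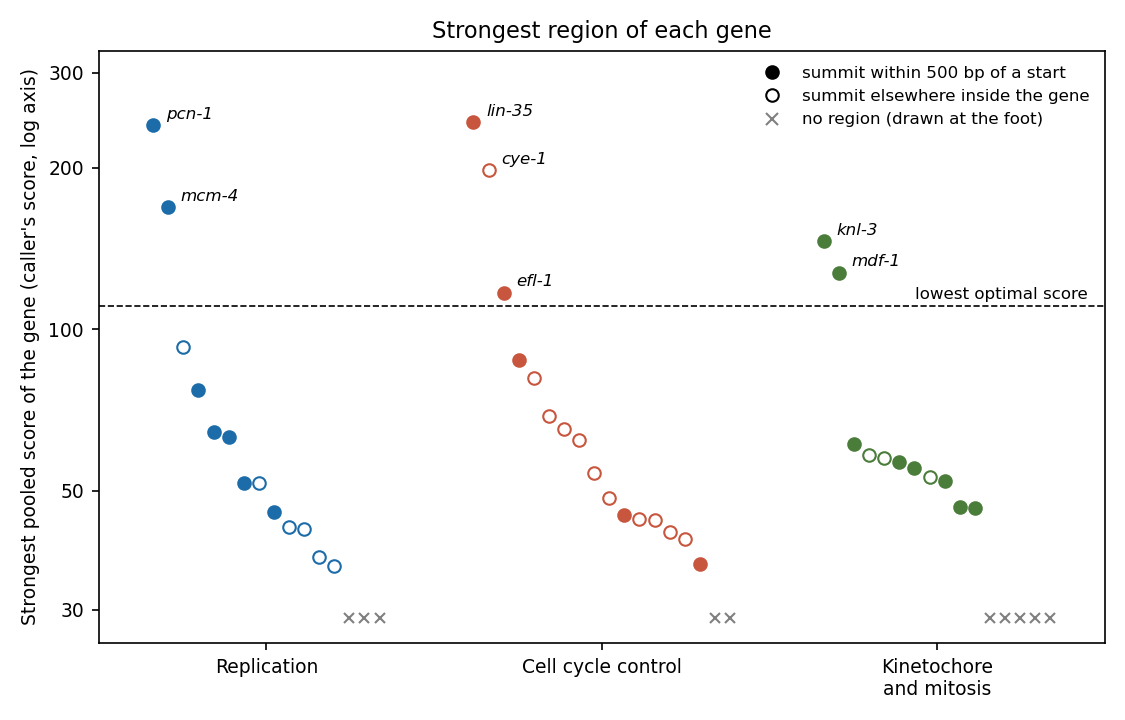
Strongest pooled score of each of the 50 genes (y axis, the caller's score, log axis) in the 3 functional groups (x axis), with genes sorted by score within a group. Filled points have the summit within 500 bp of a start, open points elsewhere in the gene, crosses at the foot are genes with no region, and the dashed line is the lowest optimal score, 110.3; 7 named genes lie above it and the next, div-1, is at 92.5.

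Of the kinetochore genes, knl-3, a subunit of the Mis12 complex of the outer kinetochore, had the strongest region, at V:1868587-1869010. It scored 146 pooled, 82.9 in replicate 1 and 60.7 in replicate 2, with ranks of 826 and 1186. The summit was 414 bp upstream of knl-3 but only 228 bp upstream of T10B5.3, so it was nearer to another gene. It was the only one of the 7 regions whose nearest protein-coding start was not that of the listed gene.

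The checkpoint gene mdf-1 had a region at V:9544222-9544645, 208 bp upstream of its start and near no other start. It scored 127 pooled, 67.3 in replicate 1 and 51.6 in replicate 2. Its ranks were 1402 in replicate 1, inside the highest 1604, and 1759 in replicate 2, outside them. Its checkpoint partner mdf-2, the Mad2 homolog, had a body region of 57.4 whose summit lay 12 bp upstream of the tRNA gene Y69A2AR.t2.

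Further kinetochore and mitosis genes with a region at a start above the pooled median were zen-4, the kinesin of centralspindlin (61.2, 324 bp upstream and 15 bp upstream of the snoRNA gene M03D4.78), hcp-4, the CENP-C homolog (56.7, 398 bp downstream), plk-1, a polo kinase (55.2, 76 bp downstream), and fzy-1, the Cdc20 homolog (52.2, 13 bp downstream). The hcp-4 and plk-1 regions had a summit in both replicates and those of zen-4 and fzy-1 in replicate 1 only. Regions at bub-1 and ndc-80 scored 46.6 and 46.4, and the bub-1 summit was in neither replicate. The body region of cyk-4, the RhoGAP of centralspindlin, scored 58.2 and lay 133 bp upstream of the snoRNA gene K08E3.11, and that of air-2, the Aurora B kinase, scored 53.1. The genes hcp-3, which encodes the centromeric histone CENP-A, knl-1, knl-2, him-10 and air-1 had no region.

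With the pooled relaxed list, 26 of 50 genes (52.0%, 37.4 to 66.3) had a region at a start, beside 33.1% of all protein-coding genes. With gene bodies it was 40 of 50 (80%, 66.3 to 90), beside 54.8%. By function, 9 of 16 replication genes, 9 of 18 control genes and 8 of 16 kinetochore and mitosis genes had a pooled region at a start, and 3, 2 and 5 genes had no region at all. Where a gene had a region at a start, its strongest score was at the median 55.9 for the listed genes and 53.8 for the 6607 protein-coding genes with one, which are close.

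Of the 7 optimal regions at these genes, 6 were intergenic and 1 was in an intron, beside 36.8% intergenic and 41.2% intronic among the 996 optimal regions at all protein-coding genes. Of the 65 weaker regions, 32 (49.2%) were in coding exons, 9 in untranslated exons, 13 in introns and 11 (16.9%) in intergenic sequence. At all protein-coding genes 41.7% of weaker regions were in coding exons and 10.8% were intergenic. All 6 optimal summits at starts were upstream, at 164 to 414 bp, with a median of -231.5 bp, beside 84.5% upstream and a median of -187 bp over all protein-coding genes. Of the 25 pairs of a listed gene and a weaker summit at its start, 13 were upstream (52%), beside 50.3% over all protein-coding genes.

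**Figure D3:**
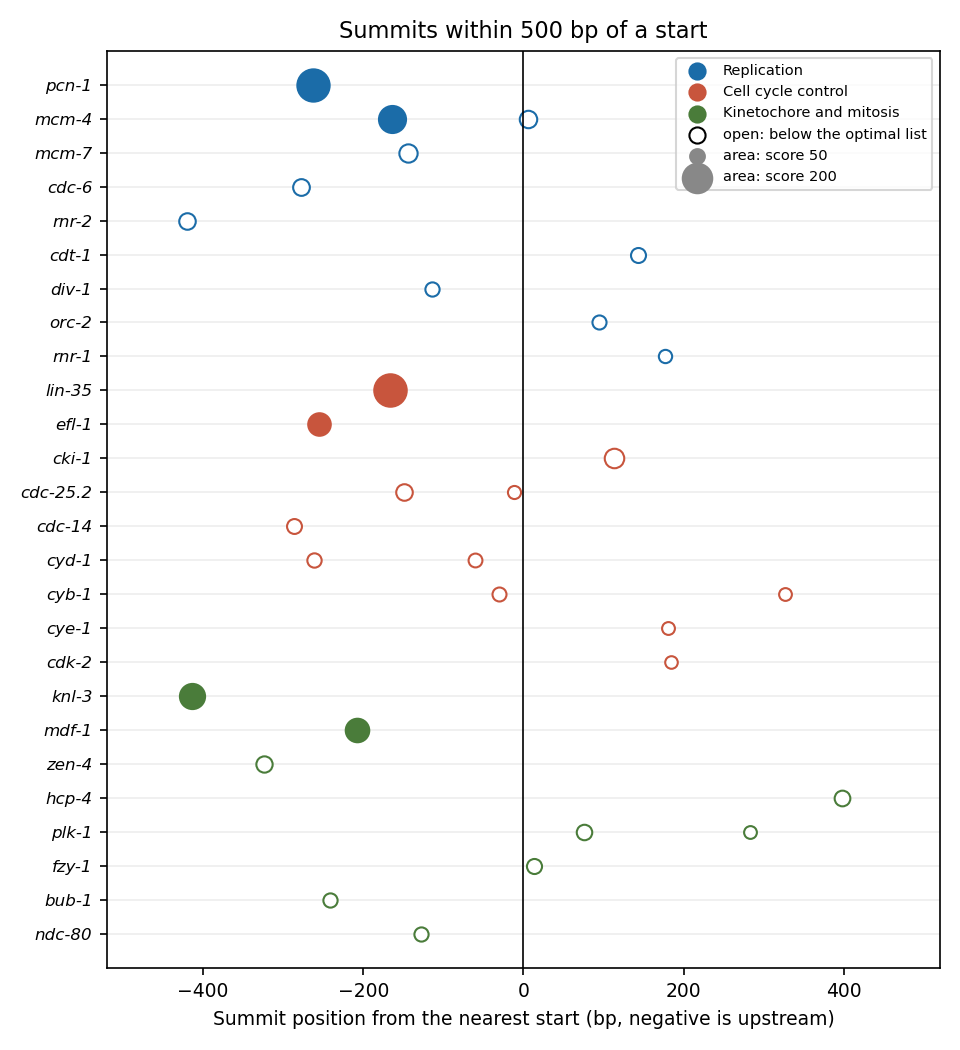
Position of each pooled summit within 500 bp of a start (x axis, bp from the nearest annotated start, negative is upstream) for the 26 genes that had one (y axis, sorted by score within each function). The area of a point is its pooled score and filled points are optimal regions; the 6 optimal summits lie between -414 and -164 bp, whereas weaker summits lie on both sides of the start.

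Each of the 7 optimal regions was matched within 100 bp by a summit from replicate 1 and one from replicate 2, and 5 of the 7 (mcm-4, pcn-1, cye-1, lin-35 and knl-3) were among the 1604 highest in both. The authors made the optimal list from these same replicates, so the match is no separate check, and 942 of 996 optimal regions at all protein-coding genes (94.6%) also had both. Of the 65 weaker regions at listed genes, 21 (32.3%) had a summit in both lists, 37 in 1 list and 7 in neither. That share was close to the 31.5% of weaker regions at all protein-coding genes.

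At the 7 optimal regions the log2 ratio of the score in replicate 1 to that in replicate 2 ran from -0.05 (pcn-1) to 0.62 (mcm-4), with a median of 0.45. Over the 1517 optimal regions with both summits the quartiles were -0.01 and 0.56, with a median of 0.26. Scores were higher in replicate 1 at 5 of the 7 and about equal at pcn-1 and efl-1. Whether these scores are scaled to depth is not known, so the ratio is read only against that of the other regions.

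**Figure D4:**
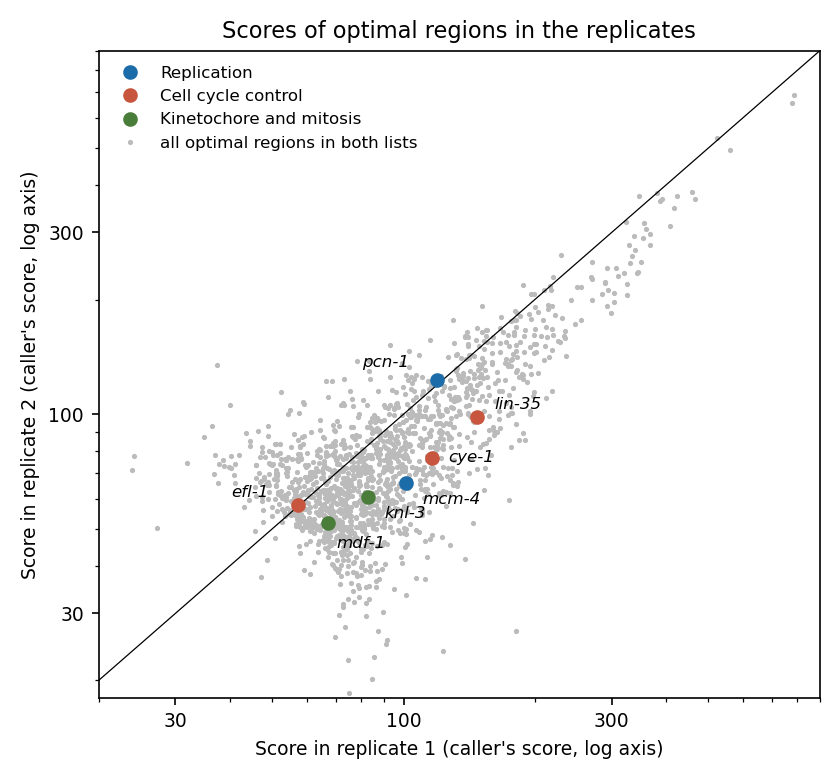
Score in replicate 2 (y axis) against score in replicate 1 (x axis), both the caller's score on log axes, for the 7 optimal regions at listed genes (coloured by function) and the 1517 optimal regions with a summit in both lists (grey), with the line of equal scores. The 7 lie inside the grey cloud, with pcn-1 (119 and 123) and efl-1 (57.2 and 57.7) on the line and the others below it.

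Letters of E2F-like sites and GACGC were each found more often at these genes than at all protein-coding genes. TTTNNCGC, searched on both strands from 250 bases before to 50 after the outermost 5′ end of each gene, occurred at 27 of 50 listed genes (54.0%, 39.3 to 68.2), beside 18.7% of all protein-coding genes. It occurred at 14 of 16 replication genes (87.5%, 61.7 to 98.4), at 7 of 18 control genes (38.9%, 17.3 to 64.3) and at 6 of 16 kinetochore and mitosis genes (37.5%, 15.2 to 64.6). Of the 27 listed genes with TTTNNCGC, 3 had an optimal region at a start: efl-1 and, among the 14 replication genes, the 2 genes pcn-1 and mcm-4. With or without TTTNNCGC, 6 of the 50 listed genes (12%) had one. Among all protein-coding genes with TTTNNCGC, 189 of 3736 had one. Whether TTTNNCGC goes with a region at these genes was not tested. The strict form TTTCCCGC was at 7 of 50 genes (14%), cdk-2, cdt-1, efl-1, mcm-6, ndc-80, rnr-2 and rpa-1, beside 1.54% of all protein-coding genes, and the form TTTGGCGC at 4 of 50 (8.0%), beside 0.906%. Both strict forms are also matches to TTTNNCGC. GACGC, which is no E2F form but can overlap TTTNNCGC, was at 20 of 50 genes (40%, 26.4 to 54.8), beside 19.3%, and GAGAGA at 13 of 50 (26%, 14.6 to 40.3), beside 21.7%.

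At the summits themselves, TTTNNCGC lay within 75 bp in 4 of the 7 optimal regions (mcm-4, pcn-1, efl-1 and knl-3). It did so in 16.5% of the 606 optimal regions at protein-coding starts and in 13.5% of all optimal regions. With or without an optimal region, 27 of the 50 listed genes (54.0%) held TTTNNCGC in the longer promoter window searched above. Whether the 4 of 7 goes beyond that trait of the gene list was not tested. GACGC was at 2 of the 7 (pcn-1 and knl-3), beside 35.1% of the 606. GAGAGA was at 0 of the 7, where the exact interval reaches 41.0%, beside 29.4% of the 606. These are matches of letters and counts of a few windows, and no binding by any E2F protein was measured here.

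The other genes of these pathways came from a list of 140 further symbols, of which 133 matched the annotation. Of these, 14 (10.5%, 5.88 to 17) had an optimal region at a start, beside 3.42% of all protein-coding genes: 6 of 35 replication genes, 4 of 33 control genes and 4 of 65 kinetochore and mitosis genes. Pooled regions at a start were found at 48 of the 133 (36.1%, 27.9 to 44.9), near the 33.1% of all protein-coding genes. The replication genes were rfc-4, a clamp loader subunit (score 274), tim-1, the Timeless homolog (264), ctf-4 (203), top-2, a topoisomerase II gene (178), mcm-10 (144) and clsp-1, the claspin homolog (133). The control genes were cdc-48.1, a p97 ATPase gene (607), lin-54 (441), lin-9 (281) and lin-53 (235), and the mitosis genes were scc-2, a cohesin loader (188), kbp-4 (156), ify-1, the securin (127), and gfi-3, an anaphase-promoting complex gene (114).

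Some of these regions also stood near the start of another gene. For 7 of the 14 the nearest protein-coding start was that of another gene, and 10 had another protein-coding start within 500 bp, against 3 of the 7 optimal regions at the listed genes. Some of those neighbours encode elongation factors or ribosomal proteins: the summits at ctf-4, clsp-1 and lin-54 were 38 bp from eef-1G, 35 bp from eef-2 and 17 bp from rpl-12, and that at rfc-4 was 18 bp from mir-5549. The tim-1 summit was 1 bp from the spliced leader RNA gene sls-2.8. Which of the neighbouring genes the tagged protein acts on was not tested.

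Of the 8 listed or pathway genes of the DREAM complex, which joins a retinoblastoma protein, E2F and DP to the MuvB proteins, 5 had an optimal region at a start, beside 3.42% of all protein-coding genes: lin-35, efl-1, lin-9, lin-53 and lin-54. The other 3 were dpl-1, lin-37 and lin-52. Only at lin-35, efl-1 and lin-9 was the nearest protein-coding start that of the gene itself. This subset was put together after the values were seen, so its count is a description and nothing is read from it.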

How the data were processed

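The data were 4 peak lists in narrowPeak format on ce11, which has the coordinates of WBcel235; no region passed a chromosome end. The deposited README describes relaxed lists (peaks with background) for replicate 1, replicate 2 and both pooled, each against 1 control file, and an optimal list thresholded on reproducibility (IDR). Aligner, caller, versions and threshold: not given in the sources used here. Per the deposited narrowPeak format, the score is the signal value of the authors' caller, and another column is the −log10 of its q value (0.0178 to 2.78 for pooled regions, 1.60 or more for optimal ones). Among regions below the optimal list at listed genes, the highest such value was 1.01, at div-1, so the weaker regions described here have little statistical backing. Sonication was to 200 to 800 bp, per the labels. Depth per sample is unknown.

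A region was counted for each gene with an annotated transcript start within 500 bp of its summit, or whose span held the summit. Replicate regions were matched when summits lay within 100 bp, taking the highest score. Genes came from RefSeq. Intervals are 95% Clopper-Pearson intervals (scipy 1.17.1, Python 3.11.15), cover counting error only, and treat genes as independent, although neighbours can share a region. No p-values were computed. The counting was checked on summits placed at known distances from starts. Replicate lists shared 0 lines.

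Members, functional groups, pathway list and motifs were chosen with earlier results of these data known. Genes were named by rule: every member with an optimal region, every member with a start region above the pooled median score and the 5 strongest others, every pathway gene with an optimal region at a start; further genes are named to account for all members.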

Additional observations from a re-analysis of the deposited data

How the results depend on the processing

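Of 86 alternative counts, 70 were within 1.5 times the value given and 16 were not. With 250 bp in place of 500 bp, 3 genes kept an optimal region at a start (mcm-4, lin-35 and mdf-1) and 4 with the gene body, beside 2.05% and 3.77% of all protein-coding genes; 4 regions were in both replicates, replication genes had 1, kinetochore and mitosis genes 1, and 5 kinetochore and mitosis genes had a pooled region at a start. Above the median score of the optimal list, 3 genes had a region at a start and 4 with the gene body (1.81% and 2.55% of all genes), 4 regions were in both replicates, and kinetochore and mitosis genes had none (0 of 16, exact upper bound 20.6%). Above the pooled median score, 17 genes had a region at a start (19.4% of all genes), 26 with the gene body (34.0%) and 5 control genes at a start. Counting the nearest start only left 1 kinetochore gene, mdf-1.

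With 1 replicate alone, the 1604 highest regions of its relaxed list stood in for the optimal list. Counts were then 5 at a start and 6 with the gene body in either case, beside 3.39% and 4.97% of all genes without replicate 1 and 3.32% and 4.88% without replicate 2; mdf-1 was lost without replicate 1 and efl-1 without replicate 2. Kinetochore and mitosis genes then had 1 to 2 optimal regions and 5 to 7 pooled regions at a start, and of all 50 genes 21 had a pooled region at a start (32.2% of all genes without replicate 1, 32.9% without replicate 2). A wider distance from a start, outermost 5′ ends and overlap of whole regions changed no count beyond 1.5 times. No paired analysis was possible because there is 1 group. The cause of each change was not tested beyond what its construction shows. Depth is unknown, so the limits it sets cannot be given.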

Other observations

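Seen from the gene, the nearest optimal summit lay at a median of 17150 bp from the outermost 5′ end of the 50 listed genes, beside 29557 bp for all protein-coding genes. The quartiles were 6127 and 38023 bp for the listed genes, beside 11491 and 63618 bp. The median was 14008 bp for replication genes, 11097 bp for control genes and 21926 bp for kinetochore and mitosis genes.

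The relaxed lists of single replicates were searched for listed genes that had no such region in the pooled list. Replicate 2 alone had a region at the starts of cya-1, a cyclin A gene, and of lin-23, which had pooled regions in the body only. It also had one at knl-2, a centromere gene with no pooled region. Replicate 1 alone added no gene. Further regions at genes that already had one were not counted.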
